A study of Rattus norvegicus with 6 samples.

Results

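Smooth muscle and pericyte genes were followed in the pituitary glands of adult rats that had or had not been exposed to nicotine before birth. 10 genes of the 33294 gene symbols in the count files were taken by name. 6 of them encode parts of the contractile apparatus of smooth muscle (Acta2, Tagln, Myh11, Mylk, Cnn1 and Des), and 4 mark pericytes (Rgs5, Pdgfrb, Cspg4 and Abcc9). Acta2 and Abcc9 were chosen by their difference between the groups in these same libraries, so their values are given as a description without a test. All 10 genes passed the filter on low counts.

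The animals were male Sprague-Dawley rats aged 11 weeks. The nicotine group was born to dams that carried an osmotic pump with nicotine tartrate, labelled as 6 mg/kg/day, and the control group was born to dams whose pump held saline. The pumps were made to last 28 days, and the dams gave birth 13 days after pump surgery, so that the rated life of a pump ran past birth. RNA of the pituitary gland was sequenced with 1 library per rat, 3 rats per group, and the labels do not say which rats were littermates. RNA was taken from the gland as a mixture of its cells, in which more cells of a type and more RNA per cell cannot be told apart.

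Smooth muscle cells wrap the arterioles that bring blood to a tissue, and they contract when the motor protein myosin, switched on by phosphorylation, pulls on actin filaments. Pericytes lie in the wall of capillaries and are held there by platelet-derived growth factor from the endothelium, which acts on their receptor Pdgfrb. The pituitary gland is fed by portal vessels from the hypothalamus and has a dense bed of fenestrated capillaries, through which hormones enter the blood. Many genes of the contractile apparatus are switched on through the CArG box, a DNA element bound by serum response factor together with its partner myocardin.

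Totals lay between 28318383 and 85977002 counts per library, and the nicotine libraries held more counts than the controls of the same rank by size. Levels are given as CPM, the count of a gene scaled to a common library total after TMM normalization, which adjusts totals for genes that take up a large share of them. Nicotine replicate 2 stood furthest from the other libraries over all genes, at a mean distance of 90.8 on the log2 CPM scale against 71.96 to 80.7 for the rest. The extraction protocol in the labels describes testis, but the libraries carried the pituitary hormone genes Gh1, Prl and Pomc at group means of 28596 CPM or more, while no gene of a list of 9 testis germ cell markers exceeded 0.0946 CPM in any library. Of the markers of other muscles, the creatine kinase gene Ckm had 0 counts in 4 libraries and 4 to 5 counts in the others. The atrial gene Nppa had 0 counts throughout. Other such markers were detected. Myh6, Tnnt2 and Myh7 had means of 6.61, 4.44 and 3.88 CPM over the libraries, above the mean of 1.53 CPM of Acta2.

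Promoter sequences, the 250 bases before the annotated start of transcription, were looked up in RefSeq (build GRCr8) for the members and were found for 7 of the 10. There was no entry for Tagln, Myh11 or Pdgfrb. The sequences of 4 genes are shown because Acta2 and Abcc9 have the largest log2 fold change of the contractile and of the pericyte genes, Mylk is the other member with a match to a searched motif, and Rgs5 is a standard pericyte marker. Capitals mark matches to the CArG box with 1 G or C in its core, or to CATTCC on either strand, the core of the MCAT element of muscle genes. The Acta2 window lies at chr1:241172504-241172753 on the minus strand, the Mylk window at chr11:79498575-79498824 on the minus strand, the Rgs5 window at chr13:84380827-84381076 on the plus strand and the Abcc9 window at chr4:177386349-177386598 on the minus strand.
Acta2: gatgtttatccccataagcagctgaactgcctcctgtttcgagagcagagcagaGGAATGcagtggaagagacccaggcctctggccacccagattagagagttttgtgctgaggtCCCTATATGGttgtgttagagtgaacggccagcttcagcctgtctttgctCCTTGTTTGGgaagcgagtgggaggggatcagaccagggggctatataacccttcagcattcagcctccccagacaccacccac
Mylk: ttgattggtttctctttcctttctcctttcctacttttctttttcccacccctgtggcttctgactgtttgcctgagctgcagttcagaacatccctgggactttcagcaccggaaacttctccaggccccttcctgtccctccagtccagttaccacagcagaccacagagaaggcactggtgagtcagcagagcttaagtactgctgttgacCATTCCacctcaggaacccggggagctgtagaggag
Rgs5: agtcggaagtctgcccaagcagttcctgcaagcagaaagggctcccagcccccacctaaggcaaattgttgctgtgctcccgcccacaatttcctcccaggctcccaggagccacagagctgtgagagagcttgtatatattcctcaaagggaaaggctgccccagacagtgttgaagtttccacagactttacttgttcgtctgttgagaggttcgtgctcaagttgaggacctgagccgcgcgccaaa
Abcc9: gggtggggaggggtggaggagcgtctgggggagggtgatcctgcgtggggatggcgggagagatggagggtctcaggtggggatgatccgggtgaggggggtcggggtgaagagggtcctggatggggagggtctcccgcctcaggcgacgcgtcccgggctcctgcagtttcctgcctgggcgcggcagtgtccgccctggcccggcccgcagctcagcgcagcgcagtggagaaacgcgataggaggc

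In the Acta2 sequence the CArG-like elements lie 134 to 125 and 84 to 75 bases before the start, and the CATTCC match, which reads GGAATG on the shown strand, lies 196 to 191 bases before it. Mylk has 1 CATTCC match, 36 to 31 bases before the start. A CArG box without a mismatch was found in none of the 7 windows, against 1.5% of the 33469 promoters of the table. The form with 1 G or C was found in 6.84% of them and CATTCC in 12.1%. No motif searched overlapped another in the Acta2 window. The Abcc9 window holds 71.2% G and C and the Acta2 window 54%. These matches describe letters, and no match says only that the letters are not in this window.

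Every one of the 10 genes had a higher mean in the nicotine group than in the control group. The largest differences in log2 fold change were those of Acta2 (2.01, with a standard error, SE, of 0.39), Cnn1 (1.5, SE 0.63), Tagln (1.28, SE 0.77) and Abcc9 (1.27, SE 0.37), and the smallest was that of Mylk (0.41, SE 0.29). A log2 fold change above 0 was found for 51% of the 17292 genes tested, and the median over all of them was 0.007. A gene was called where edgeR's quasi-likelihood test gave a Benjamini-Hochberg adjusted p below 0.1 and its fold change exceeded 1.5. This held for 0 genes of the whole table, 0%, so no member was called. At an unadjusted p under 0.05 that test gave 1062 genes, 542 of them higher after nicotine, which is 3.13% of the genes tested. DESeq2, with the same thresholds, called 61 genes, of which 18 were higher after nicotine. The latter are 0.1% of the genes with an adjusted p, and Acta2 and Abcc9, which were noticed for this, are the members among them. All nicotine libraries exceeded all controls for 6.12% of the genes tested. Of the 8 members that were not picked for their change this held for 1, Cspg4, and it held for Acta2 and Abcc9, where nothing can be read from it.

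**Figure D1:**
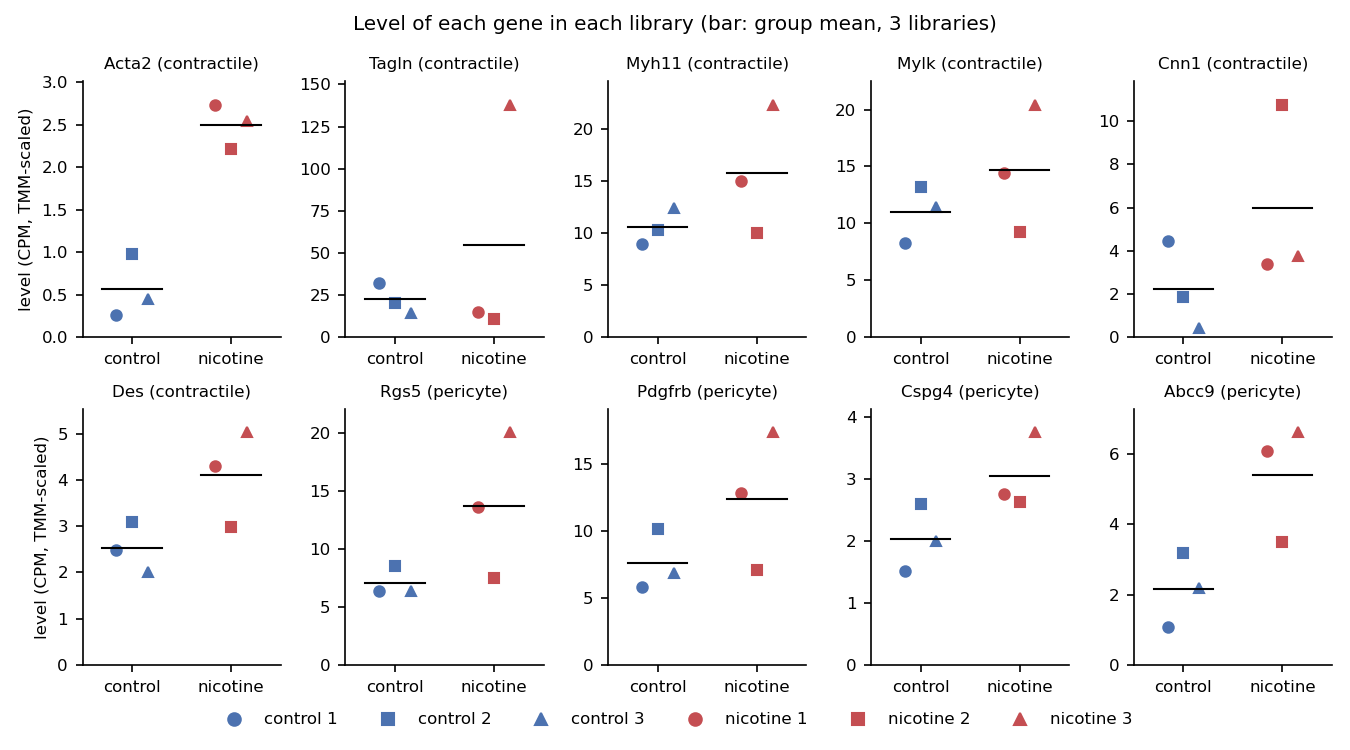
Level of the 6 contractile and 4 pericyte genes in CPM (vertical axes from 0, each with its own scale) in 3 control and 3 nicotine libraries, 1 symbol per library and a bar at each group mean. The groups are apart for Acta2, Cspg4 and Abcc9, a single nicotine library carries Tagln (138 CPM) and another carries Cnn1 (10.8 CPM).

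Acta2 encodes the actin of smooth muscle filaments. Its level was 2.74, 2.21 and 2.54 CPM in nicotine replicates 1, 2 and 3 and 0.258, 0.984 and 0.449 CPM in control replicates 1, 2 and 3. The nicotine libraries lay close together, with a coefficient of variation of 10.6%, while that of the controls was 66.7%. These levels rest on 129, 204 and 154 counts after nicotine and on only 7, 52 and 17 counts in the controls. The exact binomial 95% interval, which covers counting error only, ran from 0.104 to 0.532 CPM in control replicate 1 and from 0.734 to 1.29 CPM in control replicate 2. The group means were 2.50 ± 0.264 CPM (SD, n = 3) and 0.564 ± 0.376 CPM (SD, n = 3), a 4.02-fold difference in the fit. Leaving out 1 library at a time gave log2 fold changes from 1.75, without control replicate 1, to 2.76, without control replicate 2. The coding sequence of Acta2 is nearly identical to that of the other muscle actins, and how reads that map to several genes were counted is not stated, so its count is uncertain by the reads they share.

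The other actin genes showed smaller differences. Acta1, the skeletal muscle actin, was at 3.76, 5.58 and 4.91 CPM after nicotine and 4.73, 4.58 and 2.35 CPM in controls. Actg2, the second smooth muscle actin, was at 0.191, 2.03 and 0.463 CPM against 0.591, 0.473 and 1.48 CPM, and Actc1, the cardiac actin, had at most 4 counts in any library. The cytoplasmic actin genes Actb and Actg1 had log2 fold changes of 0.11 (SE 0.18) and 0.13 (SE 0.23), and adjusted p of 0.916 and 0.925 in edgeR. Across these genes the largest log2 fold change was 0.30 for Acta1, with overlapping groups.

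Myh11, the heavy chain of smooth muscle myosin, was at 15.0, 10.01 and 22.3 CPM after nicotine and 8.94, 10.3 and 12.4 CPM in controls. Nicotine replicate 2 lay within the control range and nicotine replicate 3 was the highest library. The log2 fold change was 0.57 (SE 0.28, adjusted p = 0.810 in edgeR), and 0.24 without nicotine replicate 3.

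Mylk encodes the kinase that phosphorylates the myosin light chain and so starts contraction. It stood at 14.4, 9.25 and 20.4 CPM after nicotine and at 8.31, 13.2 and 11.5 CPM in controls, with the same highest and lowest libraries as Myh11. Its log2 fold change of 0.41 (SE 0.29, adjusted p = 0.832 in edgeR) was smaller than the spread between libraries and was 0.09 without nicotine replicate 3. In 5 of the 6 libraries there were 91.6 to 95.8 counts of Mylk for every 100 of Myh11, and in control replicate 2 there were 128. Each of these genes varied by 2.46-fold or more between its lowest and highest library.

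Des encodes desmin, the intermediate filament of muscle cells. Levels were 4.31, 2.97 and 5.02 CPM after nicotine and 2.47, 3.08 and 2.01 CPM in controls, so that only nicotine replicate 2 and control replicate 2 crossed. The log2 fold change was 0.68 (SE 0.29, adjusted p = 0.806 in edgeR). With 1 library left out at a time it lay between 0.50 and 0.87.

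Tagln, which encodes the actin-binding protein transgelin, was decided by 1 library. It was at 15.1, 10.6 and 138 CPM after nicotine and at 32.4, 20.4 and 14.6 CPM in controls. The peak in nicotine replicate 3 comes from 8348 counts, and both other nicotine libraries were at the low end of the controls or below them. With all libraries the log2 fold change was 1.28 (SE 0.77, adjusted p = 0.826 in edgeR). Without nicotine replicate 3 it turned to -0.80. An exact two-sided permutation test of the log2 levels gave p = 0.9, where 3 libraries against 3 cannot give less than 0.1. For each 100 counts of Myh11 there were 618 of Tagln in nicotine replicate 3 and 101 to 362 in the other libraries.

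Cnn1, which encodes calponin, an actin-binding protein that slows the myosin motor, had a library order of its own. Its levels were 3.39, 10.8 and 3.75 CPM after nicotine and 4.47, 1.85 and 0.423 CPM in controls. The highest library was nicotine replicate 2, which was the lowest nicotine library for the other 5 contractile genes, and the lowest was control replicate 3, at 16 counts. The log2 fold change was 1.5 (SE 0.63, adjusted p = 0.806 in edgeR). It was 0.76 without nicotine replicate 2 and 2.35 without control replicate 1. Each 100 counts of Myh11 came with 108 counts of Cnn1 in nicotine replicate 2 and with 3.397 in control replicate 3.

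Of the 8 posterior lobe and folliculostellate markers, 2 had the same highest and lowest library as Cnn1. These were Rax and Nkx2-1, transcription factor genes of hypothalamus and posterior lobe named here after their values were seen, which were at 11.2 and 4.70 CPM in nicotine replicate 2 and at 0.291 and 0.185 CPM in control replicate 3. The other 6, also looked at after their values were seen, did not share both. Slc1a3, S100b and Anxa1 were highest in nicotine replicate 3, and Gfap was highest in control replicate 2. Scn7a was lowest in nicotine replicate 1, and Sox2 was lowest in control replicate 2. Of these 6, Scn7a and Sox2 shared only the highest library of Cnn1, and Slc1a3 shared only its lowest. Of all genes with a mean of 1 CPM or more, those with library profiles nearest to Cnn1 were Esrrb, Acsbg1 and Oxt, also named after their values were seen. Oxt, the oxytocin gene, is expressed by neurons whose endings fill the posterior lobe, and it was at 73.9 CPM in nicotine replicate 2 and 2.67 CPM in control replicate 3. The part of the posterior lobe in the Cnn1 values was not tested.

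**Figure D2:**
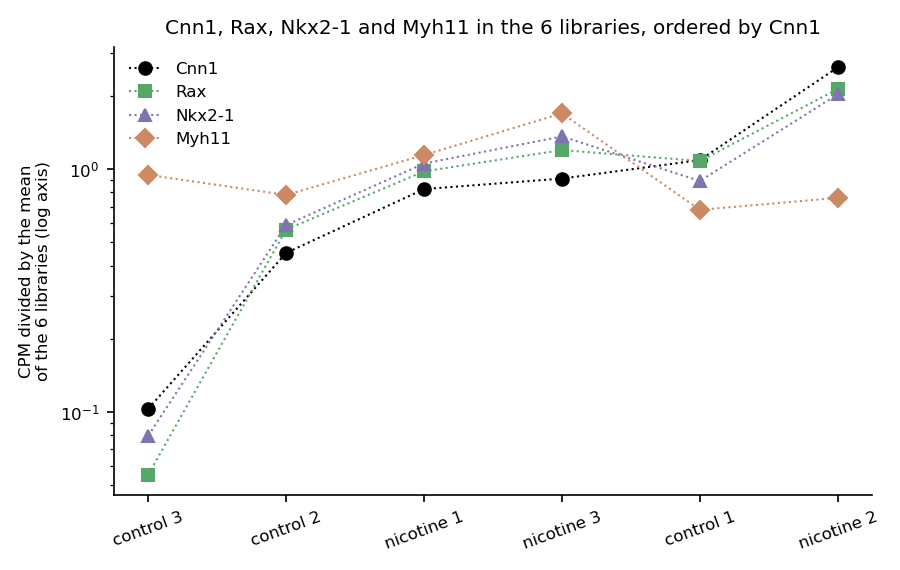
Levels of Cnn1, Rax, Nkx2-1 and Myh11 in the 6 libraries, each divided by its mean over the libraries (vertical log axis), with the libraries ordered by Cnn1 and dotted lines only as a guide. Cnn1 and, of 8 posterior lobe and folliculostellate markers, only Rax and Nkx2-1 have both their lowest value in control replicate 3 and their highest in nicotine replicate 2, while Myh11 is highest in nicotine replicate 3 (22.3 CPM).

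Among the pericyte genes, Rgs5 encodes a regulator that shortens G protein signalling and is a standard marker of pericytes. It was at 13.6, 7.47 and 20.1 CPM after nicotine and at 6.35, 8.53 and 6.39 CPM in controls. Nicotine replicates 1 and 3 were above all controls and nicotine replicate 2 was within their range. Its log2 fold change, 0.94 (SE 0.32, adjusted p = 0.760 in edgeR), was the largest of the 3 pericyte genes that were not picked for their change. It was 0.56 without nicotine replicate 3, and the DESeq2 adjusted p was 0.272.

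Pdgfrb, the receptor by which pericytes are recruited to vessels, was at 12.9, 7.08 and 17.4 CPM after nicotine and at 5.83, 10.2 and 6.84 CPM in controls. It followed Rgs5 through the libraries, with 83.8 to 115 counts of Rgs5 for each 100 of Pdgfrb. The log2 fold change was 0.69 (SE 0.32, adjusted p = 0.807 in edgeR), and 0.37 without nicotine replicate 3.

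Cspg4 encodes the proteoglycan NG2 on the pericyte surface. Its levels of 2.76, 2.63 and 3.75 CPM after nicotine were all above those of 1.51, 2.59 and 2.01 CPM in controls, but nicotine replicate 2 and control replicate 2 were 2.63 and 2.59 CPM, which is no gap beyond counting error at 242 and 137 counts. The log2 fold change was 0.55 (SE 0.29, adjusted p = 0.814 in edgeR), and an exact two-sided permutation test gave p = 0.1, the smallest that this design allows.

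Abcc9 encodes SUR2, the regulatory subunit that pairs with the pore Kcnj8 to form the ATP-sensitive potassium channel of pericytes and vascular muscle, which lowers contraction when it opens. It was at 6.09, 3.51 and 6.61 CPM after nicotine and 1.07, 3.18 and 2.19 CPM in controls. The groups did not overlap, although the exact binomial intervals of the nearest pair, 3.13 to 3.91 CPM in nicotine replicate 2 and 2.71 to 3.69 CPM in control replicate 2, did. The group means were 5.40 ± 1.66 CPM (SD, n = 3) and 2.15 ± 1.05 CPM (SD, n = 3), a 2.41-fold difference. Leaving out 1 library at a time kept the log2 fold change between 0.99 and 1.68.

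The channel partners of Abcc9 showed smaller differences. Kcnj8, the pore, was at 3.92, 2.30 and 3.77 CPM after nicotine and at 2.33, 2.53 and 1.80 CPM in controls, with a log2 fold change of 0.57 (SE 0.30, adjusted p = 0.813 in edgeR). There were 57 to 65.6 counts of Kcnj8 for each 100 of Abcc9 in the nicotine libraries and 79.8 to 217 in the controls. As Abcc9 was picked for its higher level after nicotine, a lower proportion there is favoured by that choice, and these proportions carry no test. The highest of these, in control replicate 1, rests on 29 counts of Abcc9. The endocrine forms of the channel, Kcnj11 and Abcc8, had log2 fold changes of 0.42 and 0.23 with overlapping groups.

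**Figure D3:**
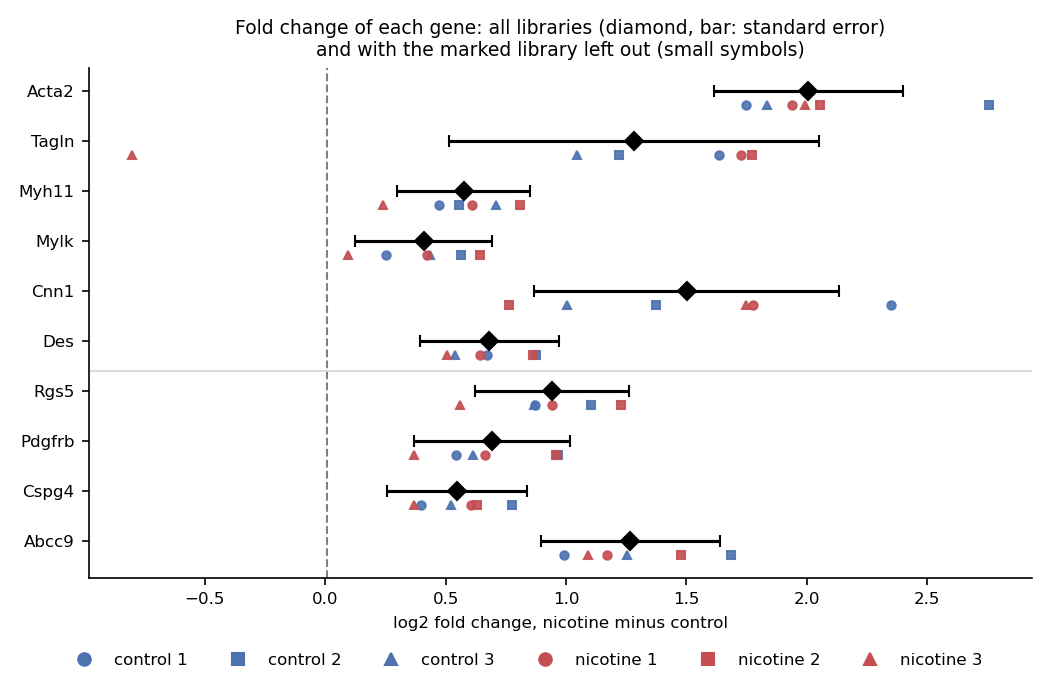
Log2 fold change (horizontal axis, nicotine minus control) of the 6 contractile genes and, under the line, the 4 pericyte genes, as diamonds with the standard error of the edgeR fit. Small symbols give the value with the marked library left out, and the dashed line is the median of all genes tested (0.007). All small symbols lie to the right of it except that of Tagln without nicotine replicate 3 (-0.80).

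Taken as groups, the median log2 fold change was 0.98 for the 6 contractile genes and 0.82 for the 4 pericyte genes. Without Acta2 the contractile median was 0.68 and without Abcc9 the pericyte median was 0.69. Nicotine replicate 3 was the highest library for 4 of the 6 contractile and for all 4 pericyte genes, and control replicate 1 was the lowest for 3 and for all 4. Without nicotine replicate 3 the medians were 0.37 and 0.46. Without Acta2, the mean log2 CPM of the other 5 contractile genes was 3.12, 2.996 and 4.04 after nicotine and 2.95, 2.80 and 2.19 in the controls, so that nicotine replicate 2 and control replicate 1 lay side by side. For the pericyte genes without Abcc9 it was 2.98, 2.38 and 3.46 against 1.95, 2.62 and 2.17, where nicotine replicate 2 and control replicate 2 crossed.

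Within the libraries, Acta2 and Abcc9 also stood apart from genes of their own group. For each 100 counts of Myh11 there were 18.2, 22.1 and 11.4 counts of Acta2 after nicotine and 2.89, 9.56 and 3.61 in the controls. For each 100 counts of Pdgfrb there were 47.4, 49.5 and 38.02 counts of Abcc9 after nicotine and 18.4, 31.2 and 32.0 in the controls. Neither proportion overlapped between groups, and since both genes were picked for their change the proportions carry no test. The proportions of Mylk, Des, Tagln and Cnn1 to Myh11, and of Rgs5 and Cspg4 to Pdgfrb, overlapped between the groups.

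**Figure D4:**
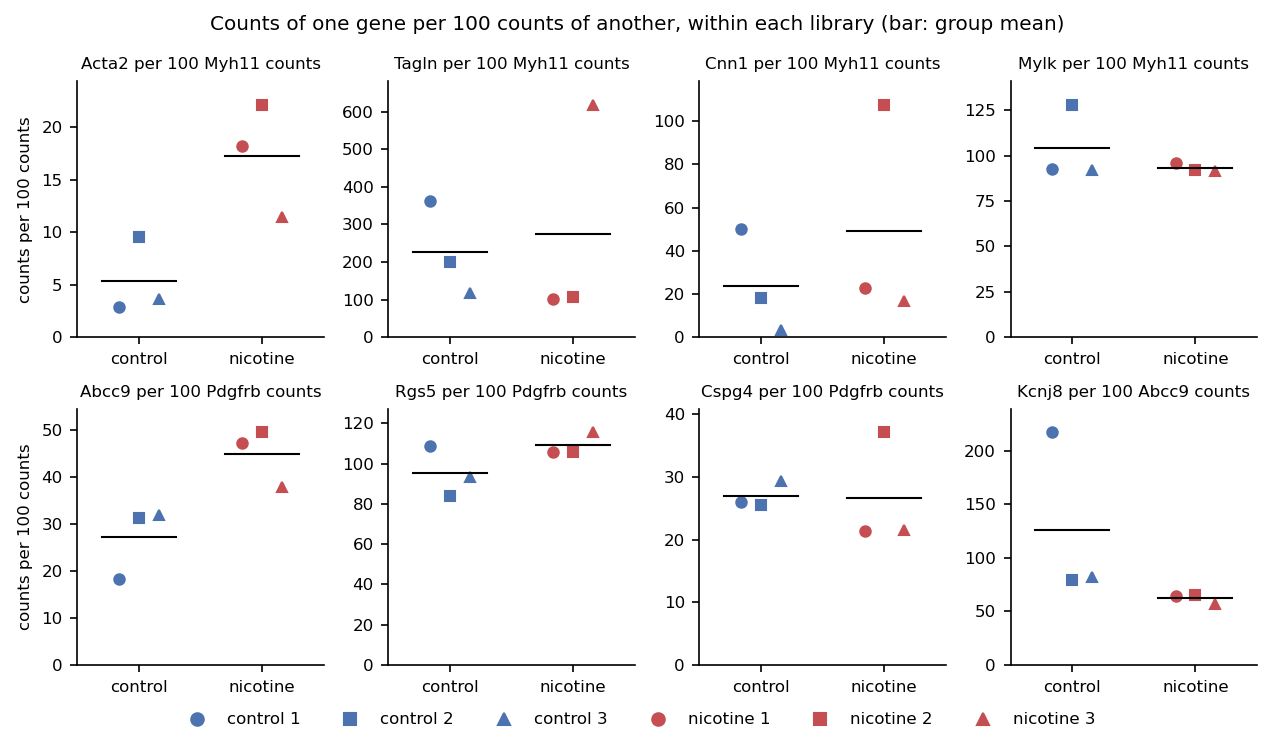
Counts of one gene per 100 counts of another in the same library (vertical axes from 0), 1 symbol per library and a bar at each group mean. Acta2 against Myh11 and Abcc9 against Pdgfrb are higher in all nicotine libraries, and Kcnj8 against Abcc9 is lower in them. The choice of Acta2 and Abcc9 by their change favours these directions, so these proportions carry no test. The other 5 proportions overlap between the groups.

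Further genes of these cells were read from lists that do not share a gene with the members. Of 16 other smooth muscle genes 15 had a log2 fold change above 0, with a median of 0.46, 0.26 without nicotine replicate 3, and 5 had all nicotine libraries above all controls, against the 6.12% of all genes. Those with the highest mean CPM were Csrp1, Cald1 and Tpm1, with log2 fold changes of 0.43 (SE 0.19), 0.17 (SE 0.19) and 0.15 (SE 0.15). Lmod1, which encodes leiomodin and was named after its values were seen, was at 4.22, 6.40 and 6.46 CPM after nicotine and 3.03, 3.25 and 0.925 CPM in controls. Aoc3, the amine oxidase gene of vessel and fat cells, also named after its values were seen, went the other way, at 11.3, 7.71 and 13.6 CPM against 13.7, 25.6 and 18.6 CPM. Adjusted p in edgeR were 0.760 or higher for the whole list.

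Of 13 other pericyte genes 10 had a log2 fold change above 0, with a median of 0.29, which was 0.09 without nicotine replicate 2 and 0.13 without control replicate 3. All nicotine libraries lay above all controls for 4 of the 13 and below them for 0, against 6.12% above for all genes. Enpep and Rgs4, the highest by mean CPM, were at log2 fold changes of 0.29 (SE 0.23) and 0.03 (SE 0.21). Mcam, an adhesion molecule of vessel walls, came next by mean CPM. Its levels were 13.1, 11.7 and 12.9 CPM after nicotine and 6.54, 7.60 and 4.46 CPM in controls. The log2 fold change was 1.01 (SE 0.23, adjusted p = 0.702 in edgeR), and DESeq2 called it with an adjusted p of 0.0185.

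The regulators of the contractile genes did not share one direction. Srf was at 34.6, 25.1 and 20.3 CPM after nicotine and 22.3, 37.3 and 22.3 CPM in controls. Myocd, which encodes myocardin, was lower in each nicotine library, at 0.127, 0.282 and 0.264 CPM against 0.406, 0.454 and 0.396 CPM, but on 6 to 26 counts per library (log2 fold change -0.83, SE 0.46, adjusted p = 0.821 in edgeR). The myocardin-related cofactors Mrtfa and Mrtfb had log2 fold changes of 0.49 (SE 0.23) and 0.54 (SE 0.22). Those of Klf4, Elk1, Tbx18 and Heyl were -0.49, 0.10, -0.95 and 0.33, and Gata6 did not pass the filter. Tbx18 was also lower in each nicotine library than in any control, and Mrtfb was higher, each with an adjusted p of 0.806 in edgeR. Of all genes tested 6.12% lay above in this way, and the share that lay below was not counted. The median of the 8 genes tested was 0.03, between -0.17 and 0.23 with 1 library left out.

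Of 12 genes for platelet-derived growth factors and vessel recruitment, 8 had a log2 fold change above 0, with a median of 0.08. Highest by mean CPM were Tgfbr2 (0.30, SE 0.18), Angpt1 (-0.42, SE 0.20) and S1pr1 (0.38, SE 0.21). Pdgfb, the endothelial ligand of Pdgfrb, was named after its values were seen. It was at 6.15, 5.35 and 5.30 CPM after nicotine and at 3.18, 4.46 and 3.43 CPM in controls (log2 fold change 0.59, SE 0.23, adjusted p = 0.806 in edgeR).

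Markers of other cells were read beside these genes, and edgeR called 0 of them, with adjusted p of 0.760 or higher. 12 of 13 endothelial markers tested had a log2 fold change above 0, with a median of 0.44, and their summed level was 255 to 414 CPM after nicotine and 206 to 282 CPM in controls. All nicotine libraries lay above all controls for 5 of the 13 and below them for 0, so the share above 6.12% was not particular to the smooth muscle list. Plvap, the gene of the fenestra diaphragm, had a log2 fold change of 0.71 (SE 0.21), Kdr one of 0.44 (SE 0.19) and Tie1 one of 0.69 (SE 0.21). The mean log2 CPM of the endothelial markers was subtracted from that of the members. For the pericyte genes this gave -1.21, -1.49 and -1.06 after nicotine and -2.09, -1.53 and -1.48 in controls, which overlapped. Without Abcc9 it gave -1.12, -1.35 and -0.88 against -1.64, -1.30 and -1.22, which overlapped as well. The contractile genes without Acta2 overlapped, at -0.99, -0.73 and -0.30 against -0.64, -1.11 and -1.20. With Acta2, picked for its change, they did not overlap, at -1.26, -1.04 and -0.75 against -1.43, -1.57 and -1.74, which carries no test. Of 8 fibroblast markers 7 had a log2 fold change below 0, with a median of -0.63 and sums of 350 to 597 CPM after nicotine against 677 to 918 CPM in controls. Dcn, Col1a2 and Col3a1 led that list by mean CPM, with log2 fold changes of -0.86, -0.51 and -0.54. All 8 erythroid markers were below 0, with a median of -1.03 and sums of 3170 to 10005 CPM against 8268 to 16615 CPM, led by Hba-a1 (-1.09), Hbb (-0.98) and Hba-a2 (-0.70). DESeq2 called 1 of them, the anion exchanger gene Slc4a1, as lower (-1.48, adjusted p = 0.0166), a gene named after its values were seen. Their part in the values of the smooth muscle and pericyte genes was not tested.

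Members of the remaining lists went both ways. Of the 8 posterior lobe and folliculostellate markers 6 were above 0, with a median of 0.27 and sums of 322 to 443 CPM against 297 to 384 CPM, and S100b, Slc1a3 and Anxa1, the highest by mean CPM, had log2 fold changes of 0.13, 0.24 and -0.17. Within that list Nkx2-1 had a log2 fold change of 1.57 (SE 0.53) and Gfap one of -0.66 (SE 0.46). Of 12 endocrine markers 7 were above 0, with a median of 0.23, which was 0.06 without nicotine replicate 2. Gh1, Pomc and Prl, the highest by mean CPM, had log2 fold changes of 0.39 (SE 0.82), -0.70 (SE 0.69) and -0.22 (SE 0.61). Lhb, the luteinizing hormone beta subunit gene, was named after its values were seen. It had the largest value of that list, 1.83 (SE 0.48, adjusted p = 0.760 in edgeR and 0.560 in DESeq2). All its nicotine libraries were above all controls, at 216, 820 and 223 CPM against 154, 75.6 and 125 CPM, with nicotine replicate 2 far above the rest. Of the skeletal and cardiac muscle lists 3 genes each could be tested, with medians of 0.30 and -0.06 and sums of at most 15.6 CPM in any library. The first turned to -0.10 without nicotine replicate 3, and the second ranged from -0.34, without nicotine replicate 1, to 0.29, without nicotine replicate 2. They included Myh7, Mylpf and Pvalb and, for the heart, Myh6, Tnnt2 and Tnni3.

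**Figure D5:**
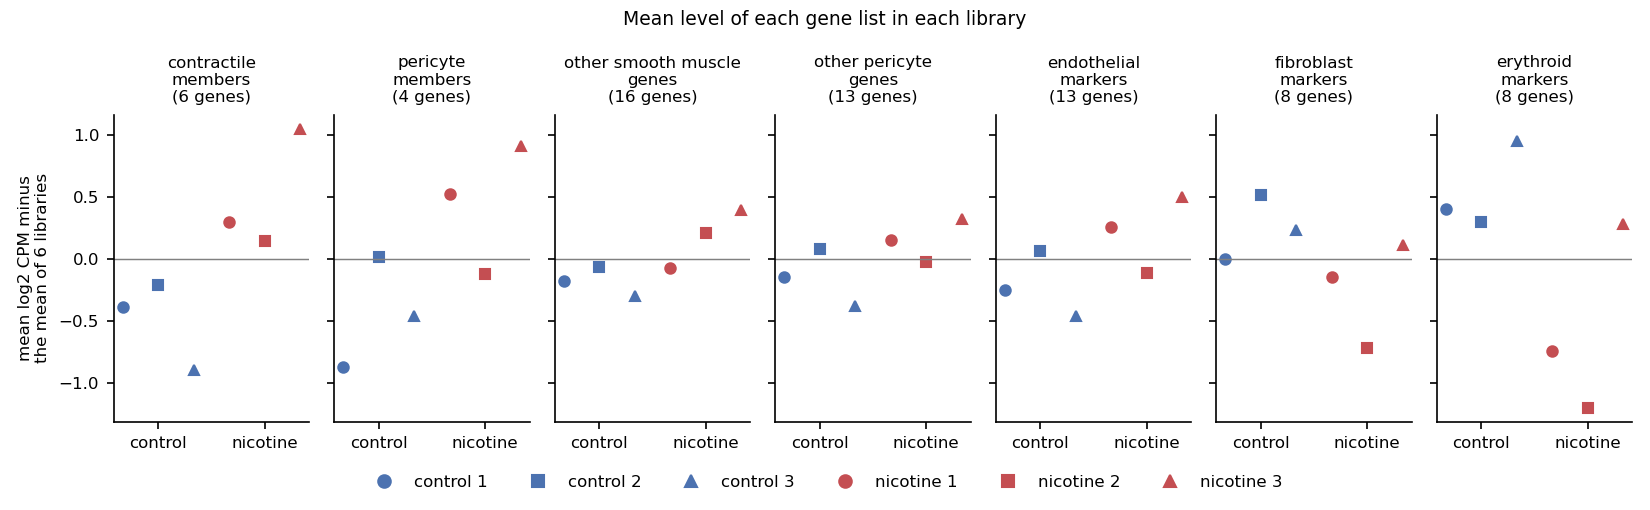
Mean log2 CPM of each gene list in each library minus its mean over the 6 libraries (vertical axis, log2 units), with 3 control libraries on the left and 3 nicotine libraries on the right of each panel. Nicotine replicate 3 is the highest library for the smooth muscle, pericyte and endothelial lists, and nicotine replicate 2 is the lowest for the fibroblast and erythroid markers.

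The genes whose library profile was nearest to the mean profile of the contractile genes, by the root mean square difference of centred log2 CPM over 6 libraries among 14496 genes, were Trpm3, Nid2, Pecam1, Plxdc1 and Plekha4, at differences from 0.15 to 0.19. Trpm3, a cation channel gene, was at 23.8, 17.2 and 39.985 CPM after nicotine and 14.9, 14.7 and 11.3 CPM in controls. Pecam1 is an endothelial adhesion gene and Nid2 encodes the basement membrane protein nidogen-2. Nearest to the pericyte genes were Plxnd1, LOC102547008, Uaca, Prrc2c and Adgrf5, at differences from 0.12 to 0.16. Plxnd1, a semaphorin receptor gene of endothelium, was at 20.4, 12.8 and 24.9 CPM after nicotine and 9.31, 15.0 and 11.3 CPM in controls. The contractile profile includes Acta2 and the pericyte profile Abcc9, both picked for their change, which favours neighbours that are higher after nicotine. As nearness was also measured over 6 libraries only, it is a description of these libraries.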

How the data were processed

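RNA of the pituitary glands of 6 rats was sequenced as stranded paired-end reads of 100 bp. Per the labels and the methods of the authors, reads were made with bcl2fastq 2.20.0.422, mapped to rn7 with HISAT2 2.1.0 and counted per gene with featureCounts on the UCSC ncbiRefSeq annotation. The deposited values are raw counts without normalization. The settings for strand, pairs and reads mapping to several places are not given in the sources used here.

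Groups came from the sample labels. Counts were compared with edgeR 4.0.16 in R 4.3.3, by the quasi-likelihood test after TMM scaling and filterByExpr, without covariates, and DESeq2 1.42.0 was an alternative. Calls required a Benjamini-Hochberg adjusted p below 0.1 with a fold change above 1.5, the thresholds in the authors' methods. Log2 CPM used a prior count of 2. Other alternatives were RLE normalization, library sizes alone, other filters, thinning, a replicate block, edgeR's older fit and leaving out each library, and the procedure was tested on simulated data. The members and gene lists were chosen with earlier results of these data known. The genes named are the members, the 3 genes of each list with the highest mean CPM, all genes of the channel, actin and regulator lists, and the 5 nearest library profiles. Ckm, Nppa, Actg2 (of the list of other smooth muscle genes) and the genes marked so in the text were named after their values were seen. Depth was 28318383 to 85977002 counts per library. P-values measure the spread between single rats, whose litters are not labelled.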

Additional observations from a re-analysis of the deposited data

How the results depend on the processing

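Over the alternatives, the number of genes called was 61 with DESeq2, 1 with library sizes alone, 2 without a filter, 1 with counts thinned to the smallest library and 2 with the replicate block, and 0 to 9 with 1 library left out, the 9 without nicotine replicate 3. The number stayed at 0 with RLE normalization, with a minimum of 10 counts in each library, without genes over 1% of counts and with edgeR's older fit (chosen after seeing the data), with 942 to 1065 genes at an unadjusted p under 0.05 in edgeR. DESeq2 was the only alternative in which a member was called, Acta2 and Abcc9. The labels do not say whether the replicate numbers pair the libraries. Deviations of same-numbered libraries correlated at 0.03, -0.20 and -0.08, and these values alone do not settle it. With the replicate block Tagln was at 0.20 instead of 1.28 and the contractile median at 0.59. With 1 library left out the contractile median ranged from 0.37 to 1.18 and the pericyte median from 0.46 to 1.09. Tagln ranged from -0.80, a reversal without nicotine replicate 3, to 1.77, the other 9 members kept their direction in all fits made, and Acta2 could not be fitted with at least 10 counts in every library, where it was filtered out. The medians and mean levels without Acta2 or Abcc9 were chosen after seeing the data. What causes these shifts was not tested. In the controls the depth limits Acta2 (7 to 52 counts) and Abcc9 (29 to 168 counts).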

Other observations

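The library profiles nearest to single members were read after the values had been seen. Among the nearest to Tagln, with its peak in nicotine replicate 3, were Grifin, Vgf, Peg10 and Tshb. They were not close to Tagln, at root mean square differences of 0.60 to 0.72. Tshb, the thyrotropin beta subunit gene, was at 2247 CPM in that library and at 480 to 1379 CPM in the other 5, and Vgf, a granin-like gene of endocrine cells, was at 109 CPM against 19.95 to 52.6 CPM. Nearest to Des were Flt1, Ankrd12, Ushbp1, Plekha4 and Plvap. Flt1, a receptor for vascular endothelial growth factor, was at 23.3, 15.2 and 24.4 CPM after nicotine and 11.7, 15.1 and 9.96 CPM in controls. Nearest to Acta2 were Slc30a3 and Nos3, which were not close either, at root mean square differences of 0.71 and 0.72, against 0.06 for Flt1 and Des. Nearest to Rgs5 were Sh3pxd2a, Ptprb, Uaca, Heg1 and Smtn, in this order. Nearest to Pdgfrb were Gimap8, Smtn, Uaca, Adgrf5 and Plxnd1, so that Uaca and Smtn were near both. Smtn encodes the actin-binding protein smoothelin of contractile smooth muscle. It was at 12.7, 6.02 and 14.4 CPM after nicotine and 5.06, 8.62 and 5.71 CPM in controls.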
